A study of Mus musculus with 36 samples.

Results

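Rag1, Rag2 and Dntt, the genes whose products start V(D)J recombination and diversify its junctions, were followed through 8 sorted mouse progenitor populations on 36 one-colour arrays. The members were the probe sets annotated to exactly 1 of these genes: 1450680_at for Rag1, 1418065_at for Rag2, and 1449757_x_at, 1420166_at and 1450545_a_at for Dntt. They are 5 of 34945 probe sets annotated to a single gene, and 3 of the 18193 genes tested. Values are robust multi-array average (RMA) log2 levels, and each gene is represented by its probe set of highest mean, which for Dntt is 1449757_x_at.

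V(D)J recombination assembles antigen receptor genes from variable, diversity and joining segments in developing lymphocytes. The RAG1 and RAG2 proteins act together as the recombinase that cuts beside the segments, and RAG1 carries the catalytic site while RAG2 is its essential partner. Terminal deoxynucleotidyl transferase, the product of Dntt, adds untemplated nucleotides at the cut ends before the classical non-homologous end-joining factors seal them. In mice, Rag and Dntt transcripts first appear in lymphoid-primed marrow progenitors, and T cell receptor gene rearrangement proceeds later, in the thymus.

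The study set candidate thymus-seeding cells of the marrow against the earliest thymic cells in C57BL6 mice, with males and females both listed. The populations were pro-B cells (B-cell progenitors, 3 arrays), DN3 thymocytes (6 arrays), Kit+ DN2 thymocytes (3 arrays), Flt3hi early thymic progenitors (ETP, 6 arrays), adult ETP (2 arrays), common lymphoid progenitors (CLP, 4 arrays), Flt3hi IL7R+ LSK cells (called LSK here, 6 arrays) and haematopoietic stem cells (HSC, 6 arrays), gated as LSK cells that were Flt3-, CD48- and CD150+. Every array, those titled adult included, carried an age label of 1 week, so the age behind the word adult is not settled by the labels. The arrays were divided here into 2 sets by how they were labelled: set 1 with 15 arrays (HSC, LSK, ETP, DN2, DN3) and set 2 with 21 arrays (HSC, LSK, CLP, ETP, adult ETP, DN3, pro-B). Set 1 labels named bone marrow or thymus as the tissue and a pool of several mice per sample. Set 2 labels gave no tissue. The median level of an array lay between 5.12 and 5.22 in set 1 but between 5.84 and 5.95 in set 2. No label states that the sets were normalized apart, but because these ranges do not meet, levels were compared within a set only. The number of arrays per population limits the precision, and with no statement that replicates came from separate cohorts, the p-values measure only the spread between these samples.

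The HSC, DN3 and pro-B arrays were high in the marker lists of their labels. The mean of 4 stem cell markers (Slamf1, Mecom, Procr, Tek) was 9.34 to 9.65 over the HSC arrays of both sets. The mean of 5 DN3 markers (Ptcra, Cd3e, Cd3g, Cd3d, Il2ra) was 11.02 to 12.31 over the DN3 arrays and 9.89 to 10.36 over the DN2 arrays. In CLP replicate 3 the stem cell marker mean was 6.21, against 4.68 to 4.89 in the other CLP arrays. The early thymic markers (Kit, Thy1, Notch1, Il2ra, Gata3) did not single out ETP. Their mean was 7.25 to 7.76 in set 1 ETP, 6.70 to 7.12 in HSC and 9.69 to 9.97 in DN3 of that set. The lymphoid-primed markers (Flt3, Il7r, Cd34, Satb1) averaged 10.55 to 10.69 in set 2 LSK cells and 10.36 to 10.68 in CLP. Adult ETP, at 10.04 to 10.14, overlapped set 2 ETP, at 9.76 to 10.12, in these markers. The mean of 7 B-lineage markers (Cd79a, Cd79b, Pax5, Vpreb1, Igll1, Ebf1, Blnk) was 11.24 to 11.41 in pro-B cells. It was 5.03 to 5.16 in set 1 ETP, against 6.84 to 7.03 in set 1 LSK cells, and 5.68 to 6.03 in set 2 ETP, against 8.95 to 9.25 in set 2 LSK cells and 7.35 to 8.62 in CLP. Neutrophil markers (6 genes) were uneven within CLP, from 5.51 to 8.89, within set 2 HSC, from 5.02 to 7.97, and within set 1 LSK, from 4.33 to 7.72. They were 6.80 to 8.06 in pro-B cells, against 4.98 to 5.26 in set 2 DN3 and 5.06 to 5.29 in set 2 ETP. Their part in the results below was not tested.

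Because the 3 genes move together in some steps and apart in others, their promoters are shown before the values. Rag1 and Rag2 lie next to each other on chromosome 2 in opposite orientations, and Dntt lies on chromosome 19. The windows run from 250 bases before to 50 bases after each annotated start (RefSeq, GRCm38.p6): chr2:101649483-101649782 on the minus strand for Rag1, chr2:101624462-101624761 on the plus strand for Rag2, and chr19:41029025-41029324 on the plus strand for Dntt. They are written 5′ to 3′, and capitals mark matches on either strand. The motifs marked are the E-box, spelled CANNTG, the Runx motif, spelled TGTGGT, the Ikaros core, spelled GGGAA, and the CCAAT box, spelled as its name.
Rag1: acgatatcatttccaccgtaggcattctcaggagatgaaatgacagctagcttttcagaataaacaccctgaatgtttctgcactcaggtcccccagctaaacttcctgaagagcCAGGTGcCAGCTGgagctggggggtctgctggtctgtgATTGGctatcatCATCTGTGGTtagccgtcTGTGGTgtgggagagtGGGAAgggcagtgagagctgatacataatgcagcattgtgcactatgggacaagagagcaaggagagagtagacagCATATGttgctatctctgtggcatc
Rag2: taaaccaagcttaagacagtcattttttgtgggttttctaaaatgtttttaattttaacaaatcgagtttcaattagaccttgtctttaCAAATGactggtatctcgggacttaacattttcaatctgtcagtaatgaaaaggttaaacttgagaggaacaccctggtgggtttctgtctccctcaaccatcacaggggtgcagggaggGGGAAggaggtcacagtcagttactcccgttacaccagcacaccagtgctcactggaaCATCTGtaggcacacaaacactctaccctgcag
Dntt: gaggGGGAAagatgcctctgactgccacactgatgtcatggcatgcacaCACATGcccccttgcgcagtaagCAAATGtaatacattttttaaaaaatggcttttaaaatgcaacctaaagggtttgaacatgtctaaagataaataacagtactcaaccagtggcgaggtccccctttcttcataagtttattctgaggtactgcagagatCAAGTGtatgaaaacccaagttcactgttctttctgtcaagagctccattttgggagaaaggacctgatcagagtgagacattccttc
The Rag1 window held 4 E-boxes, 1 CCAAT box, 2 Runx matches and 1 Ikaros core, and 1 of its E-boxes shares 2 bases with a Runx match. The Rag2 window held 2 E-boxes and 1 Ikaros core, and the Dntt window 3 E-boxes and 1 Ikaros core. Of the 32851 promoter windows in the table, 72.3% held an E-box, 37.4% a CCAAT box, 16.8% a Runx match and 62.7% an Ikaros core. A GATA core (GATAA) occurred once in the Dntt window and in 25.4% of all windows, and a Myb core (AACNG) had 2 matches each in the Rag2 and Dntt windows, none in the Rag1 window, and at least 1 in 80.3% of all windows. No window of the 3 held the Foxo motif GTAAACA, present in 3.65% of all windows. These matches describe the letters only.

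All 3 genes were far higher in LSK cells than in HSC, the most immature cells sorted. Rag1 read 9.71, 9.44 and 9.30 in set 1 LSK cells, against 2.91, 2.63 and 3.16 in set 1 HSC. In set 2 it read 11.83, 11.52 and 11.90 in LSK cells, against 4.42, 5.25 and 4.89 in HSC. Every LSK array lay above every HSC array of its set. The difference was 6.58 ± 0.21 (log2, SE) in set 1 and 6.90 ± 0.22 in set 2, or 95.6-fold and 119-fold (limma, adjusted p = 2.69e-10 and 7.3e-14). A gene was called when the adjusted p over all 18193 genes was under 0.05 and the difference at least 1 on the log2 scale. All 3 genes were called higher in both sets, where 4.08% (set 1) and 4.11% (set 2) of all genes were called higher. In bulk arrays such as these, fewer expressing cells and less RNA per cell cannot be told apart.

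Rag2, the partner subunit, rose in the same step. It read 9.23, 8.91 and 8.12 in set 1 LSK cells, against 2.94, 2.97 and 3.66 in set 1 HSC, a difference of 5.56 ± 0.31 (47.3-fold, limma adjusted p = 4.36e-08). In set 2 it read 10.44, 10.57 and 10.60 in LSK cells, against 4.45, 4.35 and 7.84 in HSC. The groups did not overlap, but the HSC array of replicate 6 stood apart from the other two. On that same array Rag1 was 4.89, Dntt 4.41 and the stem cell marker mean 9.65, close to the other HSC arrays, while Xrcc6 read 7.71, against 9.05 and 9.15 on the others. The set 2 difference was 4.99 ± 0.56 with that array (limma adjusted p = 2.39e-06) and 6.14 ± 0.20 without it (adjusted p = 5.75e-13). The array widens the error of Rag2 in each set 2 comparison, because all arrays of a set share 1 estimate of the spread. It was singled out by its Rag2 reading, so Rag2 results without it show only how far they rest on that array. Leaving it out where HSC were not compared was not planned.

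Dntt showed the largest rise of all 18193 genes between HSC and LSK cells in each set. Its 3 arrays read 12.17, 12.33 and 12.02 in set 1 LSK cells, against 4.80, 4.48 and 3.89 in set 1 HSC. In set 2 they read 12.77, 12.87 and 12.86 in LSK cells, against 4.48, 4.71 and 4.41 in HSC. The differences of 7.78 ± 0.35 and 8.30 ± 0.22 are 220-fold and 314-fold (limma, adjusted p = 9.57e-09 and 9.59e-15). By size of rise, Rag1 ranked 4 and 3 and Rag2 ranked 9 and 10 in set 1 and set 2. In HSC of set 1 and set 2, Dntt averaged 4.39 and 4.54 and Rag2 averaged 3.19 and 5.54. The array medians of those HSC were 5.19 to 5.22 and 5.90 to 5.94. Fold sizes and ranks against HSC therefore depend on low HSC readings.

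**Figure D1:**
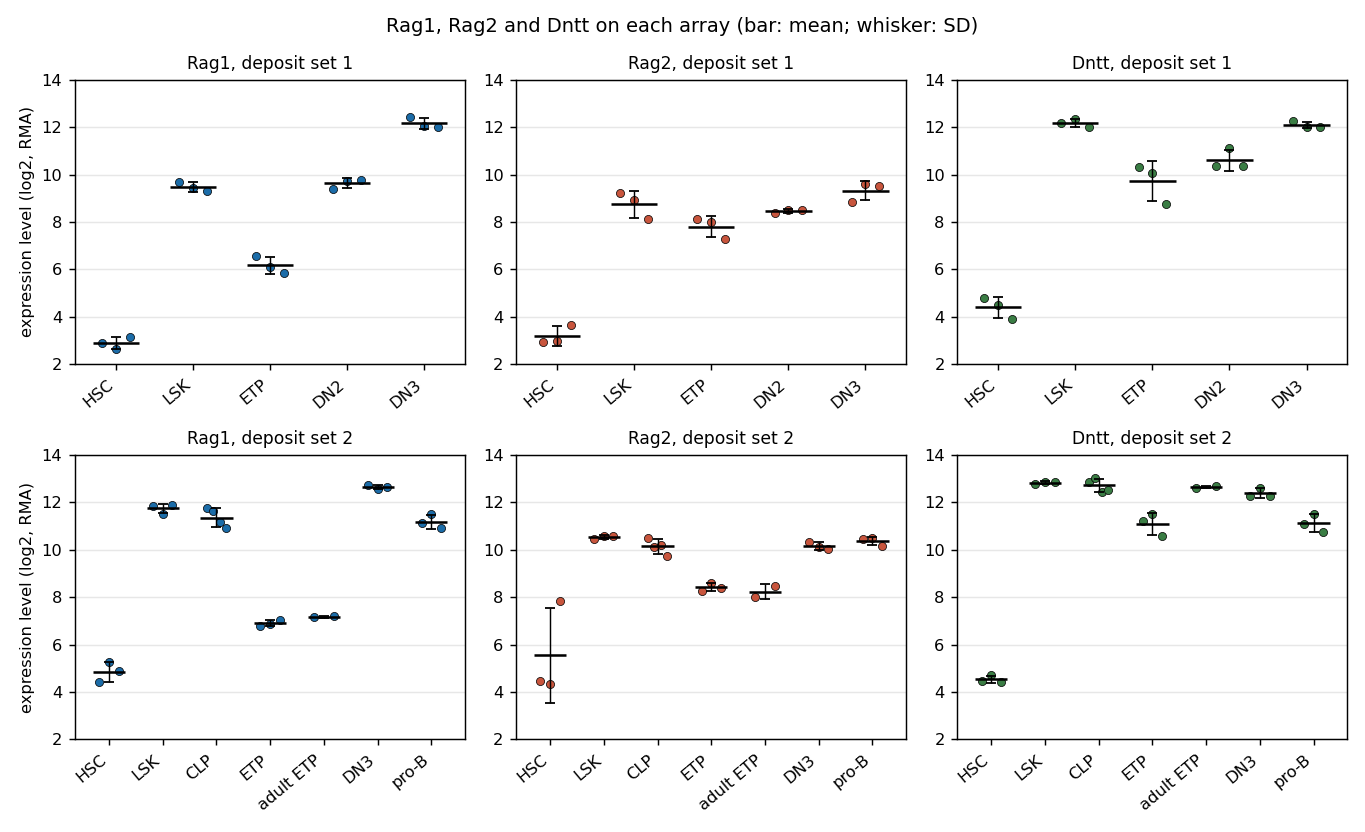
Levels of Rag1, Rag2 and Dntt (RMA log2, y axis) on every array, by population (x axis), with set 1 in the upper row and set 2 in the lower row. Points are arrays, bars are means and whiskers are SD. Rag1 dips to 5.86 to 6.58 in set 1 ETP and 6.81 to 7.05 in set 2 ETP between high LSK and DN3 levels, while Rag2 and the Dntt probe set shown dip less.

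CLP and LSK cells, the pair of marrow candidates, were not called apart in any of the 3 genes. In CLP, Rag1 read 11.76, 11.62, 11.16 and 10.91, Rag2 read 10.51, 10.13, 10.19 and 9.75, and Dntt read 12.87, 13.05, 12.45 and 12.54. Arrays of the 2 populations overlapped for each gene. The CLP minus LSK differences were -0.39 for Rag1 (95% interval -0.82 to 0.04), -0.39 for Rag2 (-1.49 to 0.71) and -0.11 for Dntt (-0.54 to 0.33). None was called (limma, adjusted p from 0.708 to 0.926) and 0 of 3 reached an unadjusted p under 0.05, in a comparison where 0.324% of all genes were called either way. Without HSC replicate 6 the Rag2 difference of -0.39 ± 0.17 was not called either (adjusted p = 0.589). A missed threshold does not show equal levels. Within CLP, replicates 1 and 2, which had the higher Rag1 levels, also had the higher B-lineage marker means, 8.32 and 8.62, against 7.60 and 7.35 in replicates 3 and 4. Their neutrophil marker means were higher too, 8.89 and 7.47, against 6.29 and 5.51 in replicates 3 and 4. The part of B-lineage cells or neutrophils in those Rag1 levels was not tested.

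The 3 genes parted at the ETP stage. Rag1 was lower in ETP than in LSK cells in both sets, reading 6.58, 6.08 and 5.86 in set 1 ETP and 6.81, 6.86 and 7.05 in set 2 ETP. No ETP array reached the lowest LSK array of its set, 9.30 in set 1 and 11.52 in set 2. The ETP minus LSK difference was -3.31 ± 0.21 in set 1 and -4.85 ± 0.22 in set 2 (limma, adjusted p = 1.62e-06 and 1.78e-10), that is 9.91-fold and 28.8-fold lower. In set 2 the ETP minus CLP difference of -4.46 ± 0.21 (adjusted p = 2.41e-10) was the largest fall of all 18193 genes. ETP Rag1 nonetheless stayed above HSC, by 3.27 in set 1 and 2.05 in set 2 (limma, adjusted p = 1.68e-07 and 1.58e-06), where 4.42% and 3.41% of all genes were called higher.

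Dntt was also lower in ETP than in LSK cells. It read 10.34, 10.07 and 8.75 in set 1 ETP and 11.21, 11.51 and 10.58 in set 2 ETP, below every LSK array of the same set. The ETP minus LSK difference was -2.46 ± 0.35 in set 1 and -1.73 ± 0.22 in set 2 (limma, adjusted p = 0.0018 and 8.45e-05), and the ETP minus CLP difference was -1.62 ± 0.21 (adjusted p = 9.54e-05). All 3 Dntt probe sets were called lower in ETP than in LSK cells in both sets, by 2.46 to 3.42 in set 1 and 1.73 to 2.50 in set 2. In set 1 that range holds the Rag1 fall of 3.31, while in set 2 each probe set fell by less than Rag1.

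Rag2 was the member whose fall between LSK cells and ETP was not called with all arrays. It read 8.13, 7.99 and 7.29 in set 1 ETP and 8.27, 8.61 and 8.40 in set 2 ETP. The populations shared 1 overlap, in set 1, where the lowest LSK array (8.12) lay just under the highest ETP array. The differences, -0.95 ± 0.31 in set 1 and -2.11 ± 0.56 in set 2, missed the threshold (limma, adjusted p = 0.199 and 0.0679). In set 2 the Rag2 estimate was larger in size than the called Dntt fall of -1.73 ± 0.22 (probe set of highest mean), but its error was larger too. Without HSC replicate 6, the set 2 difference of -2.11 ± 0.18 was called (adjusted p = 8.34e-07), and so was the ETP minus CLP difference of -1.72 (adjusted p = 0.13 with that array and 7.19e-06 without it). With all arrays, 2 of the 3 members were called lower in each set, beside 0.841% of all genes called lower in set 1 and 0.759% in set 2. Between ETP and CLP the same 2 genes were called lower, beside 0.539% of all genes.

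The B-lineage marker mean moved with these falls, as given above for ETP, LSK cells and CLP, and its part in the falls was not tested. Comparisons within a set share arrays, such as the ETP arrays in ETP minus LSK and in DN3 minus ETP. Whether the falls themselves differed between sets was tested in the 24 arrays of the 4 populations that both sets hold. The Rag1 fall from LSK cells to ETP was 1.54 ± 0.29 larger in set 2, which missed the threshold (limma interaction, adjusted p = 0.0845). It passed when ETP replicate 3 was left out (set 2 minus set 1 difference of -1.69, adjusted p = 0.0478). The other 8 interactions of the 3 genes had adjusted p of 0.815 or more.

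**Figure D2:**
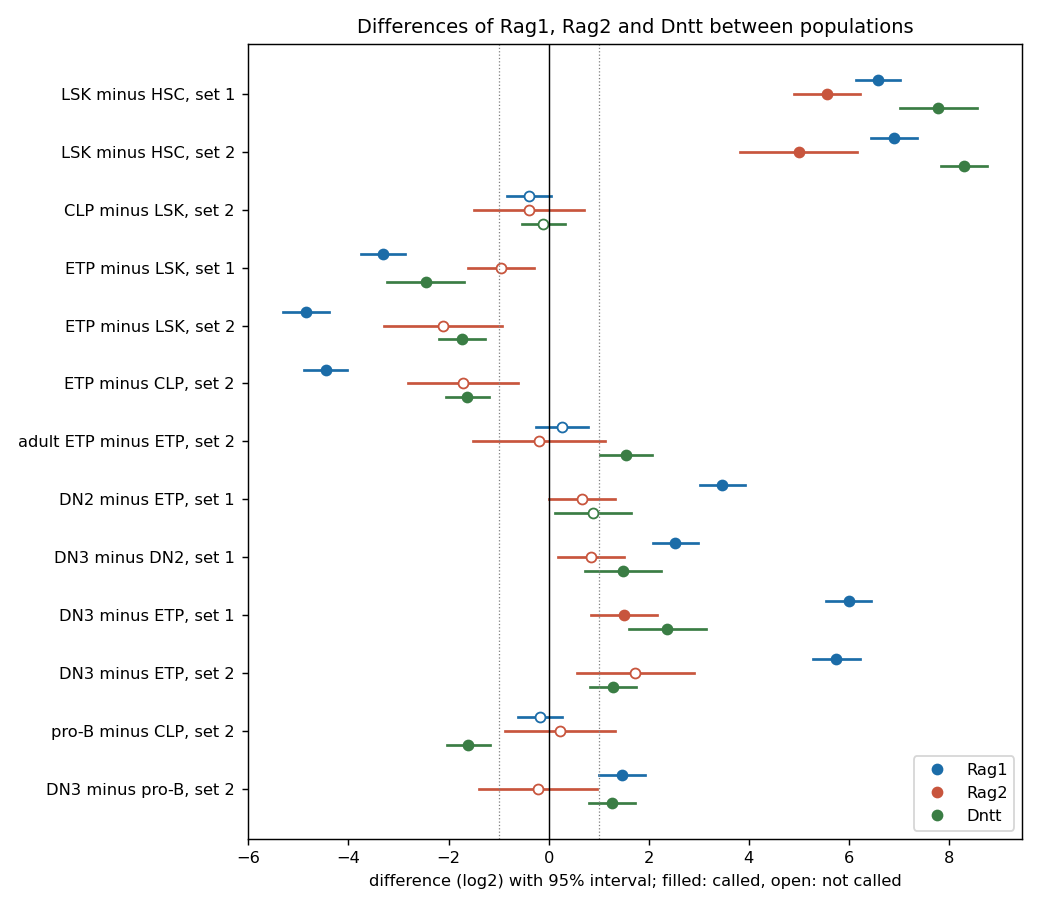
Differences between populations (x axis, log2, first minus second population) for Rag1, Rag2 and Dntt in 13 comparisons (y axis). Points are limma estimates with 95% intervals, filled where called and open where not, and dotted lines mark a difference of 1. The Rag1 points of ETP minus LSK and ETP minus CLP lie at -3.31 to -4.85, left of those of Rag2 and Dntt.

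Set against each other on the same array, Rag1 fell by more than Rag2 between LSK cells and ETP. The Rag1 minus Rag2 value was -1.56, -1.91 and -1.43 in set 1 ETP and -1.46, -1.75 and -1.35 in set 2 ETP. In LSK cells it was 0.47, 0.53 and 1.18 in set 1 and 1.39, 0.96 and 1.30 in set 2. A value on 1 array compares 2 probe sets, whose absolute levels differ in efficiency, so only its change between populations is read. The size of a change can depend on the probe set too, as it did among the Dntt probe sets above. Rag1 and Rag2 have 1 probe set each, so this part of their changes was not tested. It was lower in ETP than in LSK cells by 2.36 in set 1 and 2.73 in set 2, and the arrays did not overlap (exact two-sided permutation within sets, p = 0.005, the smallest that 400 splits allow, adjusted p = 0.0175 over 21 ratio tests). It was higher in DN3 than in ETP by 4.48 in set 1 and 4.01 in set 2 (exact permutation, p = 0.005, adjusted p = 0.0175).

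Dntt over Rag1, with the Dntt probe set of highest mean, was higher in ETP than in LSK cells, by 0.85 in set 1 and 3.11 in set 2 (exact permutation, p = 0.01, adjusted p = 0.03), and lower in DN3 than in ETP, by 3.62 and 4.46 (p = 0.005, adjusted p = 0.0175). The set 1 change between ETP and LSK cells depended on the probe set, at 0.54 with 1420166_at and -0.11 with 1450545_a_at, while in set 2 it was positive with each, the least being 2.34 with 1450545_a_at. The change between DN3 and ETP was -3.34 and -4.36 with 1420166_at, and -3.13 and -4.53 with 1450545_a_at, in set 1 and set 2. Dntt over Rag2 gave changes of -1.51 in set 1 and 0.38 in set 2 from LSK cells to ETP, and the mean of -0.56 did not pass (exact permutation, p = 0.135).

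**Figure D3:**
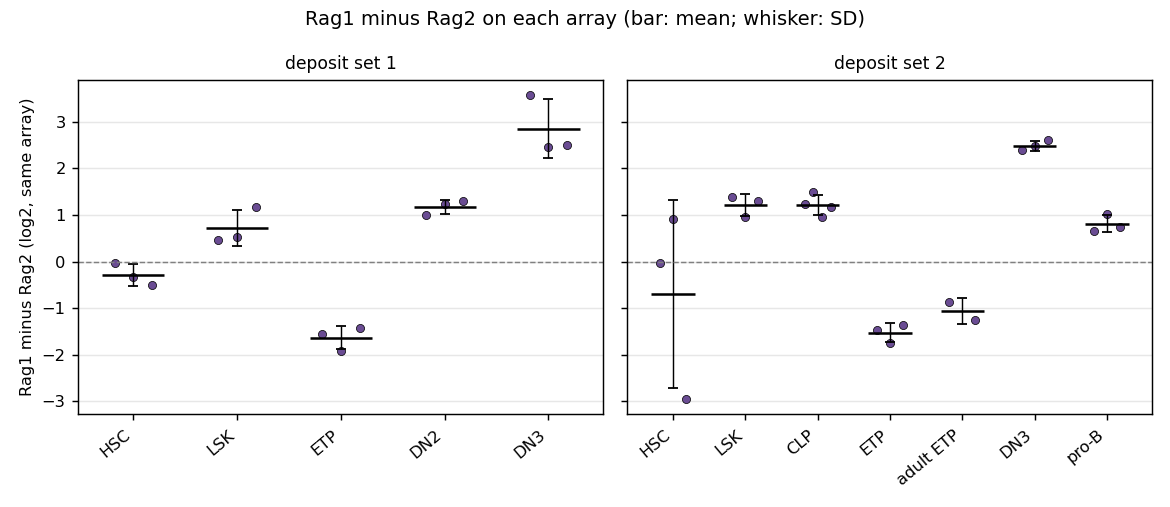
Rag1 minus Rag2 (y axis, log2, same array) by population (x axis) in set 1 (left) and set 2 (right). Points are arrays, bars are means and whiskers are SD. ETP lie at -1.91 to -1.35 and adult ETP at -1.26 to -0.86, below LSK and CLP at 0.47 to 1.49 and DN3 at 2.39 to 3.58, and HSC replicate 6 of set 2 lies at -2.95.

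Rag1 returned in DN2, the next thymic stage, measured in set 1 alone. It read 9.38, 9.75 and 9.78 in DN2 cells, above each ETP array and close to LSK cells (DN2 minus LSK 0.16, adjusted p = 0.783). The DN2 minus ETP difference was 3.47 ± 0.21, an 11.0-fold rise (limma, adjusted p = 1.8e-07). Rag2 read 8.38, 8.52 and 8.49 and Dntt 10.35, 11.13 and 10.35 in DN2 cells. Their DN2 minus ETP differences of 0.66 (95% interval 0.00 to 1.32) and 0.89 (0.12 to 1.65) missed the threshold (adjusted p = 0.409 and 0.286), although no DN2 array lay below an ETP array. Rag1 was thus the 1 member called, beside 1.34% of all genes called higher.

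DN3, the stage at which T cell receptor beta rearrangement is completed in mice, held the highest Rag1 levels of each set. Rag1 read 12.43, 12.05 and 12.01 in set 1 DN3 and 12.74, 12.58 and 12.64 in set 2 DN3. It exceeded DN2 by 2.53 ± 0.21 (limma, adjusted p = 7.85e-06) and ETP by 6.00 ± 0.21 in set 1 and 5.75 ± 0.22 in set 2 (adjusted p = 3.03e-10 and 6.29e-13), 63.8-fold and 53.7-fold. Against LSK cells the excess was 2.69 in set 1 (adjusted p = 7e-07) but 0.90 in set 2 (adjusted p = 0.0104), short of the minimum difference, beside 3.03% and 1.92% of all genes called higher in set 1 and set 2.

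Rag2 read 8.86, 9.59 and 9.51 in set 1 DN3 and 10.35, 10.10 and 10.03 in set 2 DN3. It exceeded ETP by 1.51 ± 0.31 in set 1 (limma, adjusted p = 0.00495). The set 2 excess of 1.73 was not called with HSC replicate 6 (adjusted p = 0.0652) and was called without it (adjusted p = 1.37e-06). DN3 Rag2 levels exceeded DN2 by 0.85, which was not called (adjusted p = 0.154).

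Dntt read 12.25, 12.01 and 12.01 in set 1 DN3 and 12.29, 12.62 and 12.26 in set 2 DN3, near its LSK levels. Its excess over ETP was 2.37 ± 0.35 in set 1 and 1.29 ± 0.22 in set 2 (limma, adjusted p = 0.000455 and 0.00049). Over DN2 it was 1.48 ± 0.35 (adjusted p = 0.0312), and that call was lost when any of 5 of the 6 arrays compared was left out, with adjusted p from 0.061 to 0.122 and differences from 1.35 to 1.53. Between DN3 and ETP, 3 of 3 members were called higher in set 1, beside 2.56% of all genes, and 2 of 3 in set 2, beside 1.91%. Between DN3 and DN2 there were 2 of 3 called higher, beside 0.868% of all genes.

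Adult ETP differed from ETP of set 2 in Dntt. It read 12.61 and 12.68 in adult ETP, against 11.21, 11.51 and 10.58 in ETP, and the groups did not overlap. The difference of 1.54 ± 0.25 is 2.92-fold (limma, adjusted p = 0.015). Dntt was the 1 gene called higher of 18193, that is 0.0055% of all genes, and 12 genes, 0.066%, were called lower. By size of rise Dntt ranked 16, so genes with larger rises were not called. With 2 adult arrays the call is narrow. It was lost without adult ETP replicate 1 (adjusted p = 0.229), adult ETP replicate 2 (0.102) or ETP replicate 6 (0.0973), while the difference stayed between 1.29 and 1.75 over the arrays left out. The 1420166_at probe set gave 1.75 (adjusted p = 0.0125) and 1450545_a_at gave 1.98 (adjusted p = 0.0675).

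Neither Rag gene was called between the same groups. Rag1 read 7.15 and 7.20 in adult ETP, against 6.81, 6.86 and 7.05 in ETP, a difference of 0.27 (95% interval -0.25 to 0.79, adjusted p = 0.69). Rag2 read 8.01 and 8.46 in adult ETP, against 8.27, 8.61 and 8.40 in ETP, a difference of -0.19 (-1.51 to 1.12, adjusted p = 0.927 with HSC replicate 6 and 0.722 without it). Adult ETP thus paired Rag1 and Rag2 levels near those of ETP with a Dntt level near that of LSK cells (adult ETP minus LSK -0.19, adjusted p = 0.726). The change of Dntt over Rag1 between adult ETP and ETP, 1.28, and of Dntt over Rag2, 1.74, could reach no p below 0.1 with 10 splits (exact permutation, p = 0.1 each).

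In pro-B cells, the committed B-lineage progenitors, Dntt was lower than in CLP, and the Rag genes were not called different. Dntt read 11.09, 11.52 and 10.75 in pro-B cells, below all 4 CLP arrays, and the pro-B minus CLP difference was -1.61 ± 0.21 (3.04-fold lower, limma adjusted p = 2.43e-05). All 3 probe sets were called, by -1.61, -1.73 and -1.82. Rag1 read 11.13, 11.51 and 10.93 and Rag2 read 10.46, 10.49 and 10.18 in pro-B cells, overlapping CLP. Their differences of -0.17 (95% interval -0.61 to 0.26) and 0.23 (-0.87 to 1.33) missed the threshold (adjusted p = 0.643 and 0.82), the Rag2 one also without HSC replicate 6 (adjusted p = 0.39). Dntt was the 1 member called, beside 2.54% of all genes called lower. Dntt over Rag1 was 1.43 lower in pro-B cells than in CLP (exact permutation, p = 0.0286, the smallest of 35 splits, adjusted p = 0.0667). The neutrophil markers given above were high in pro-B cells and uneven in CLP, and their part in the pro-B comparisons was not tested.

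DN3 thymocytes and pro-B cells, rearranging T and B lineage cells, differed in 2 of the 3 members. Rag1 was 1.46 ± 0.22 higher in DN3 (2.75-fold, limma adjusted p = 9.93e-05) and Dntt 1.27 ± 0.22 higher (2.41-fold, adjusted p = 0.000417), with no overlap for either gene, beside 2.92% of all genes called higher. For Dntt, 1420166_at gave 1.39 (adjusted p = 0.000476), while 1450545_a_at gave 0.89 (adjusted p = 0.0823), with overlapping arrays and no call. Rag2 differed by -0.22 (95% interval -1.39 to 0.96, adjusted p = 0.844 with HSC replicate 6 and 0.452 without it). Dntt averaged 11.10 ± 0.47 in ETP and 11.12 ± 0.39 in pro-B cells (SD, n = 3 each), a difference of -0.02 (95% interval -0.48 to 0.44), while Rag1 was 4.28 lower in ETP (limma, adjusted p = 1.38e-10, beside 2.54% of all genes called lower). Rag2 was 1.95 lower in ETP (adjusted p = 0.0281 with HSC replicate 6 and 3.71e-07 without it).

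The order of levels in set 2 sums up these differences. Rag1 descended from DN3 (12.65) through LSK (11.75), CLP (11.36) and pro-B (11.19) to adult ETP (7.17), ETP (6.91) and HSC (4.85). In that order LSK and CLP, CLP and pro-B, and adult ETP and ETP were neighbours not called apart, and DN3 and LSK differed by less than the minimum difference. Rag2 descended from LSK (10.54), pro-B (10.38), DN3 (10.16) and CLP (10.14) to ETP (8.43), adult ETP (8.23) and HSC (5.54 ± 1.99, SD, n = 3). With all arrays, adult ETP and HSC were the 1 pair of neighbours called apart, and without HSC replicate 6 ETP and CLP were called apart too. Dntt descended from LSK (12.83), CLP (12.73), adult ETP (12.65) and DN3 (12.39), none called apart from the next, to pro-B (11.12) and ETP (11.10), also not called apart, and HSC (4.54).

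Of the classical end-joining list, 15 of 16 genes were measured, and few moved with the members. Xrcc6, which encodes the Ku70 subunit that binds broken DNA ends, averaged 10.57 ± 0.23 in set 1 LSK cells and 8.22 ± 0.19 in set 1 HSC (SD, n = 3 each), a difference of 2.35 (limma, adjusted p = 1.07e-07). In set 2 the difference was 2.52 (adjusted p = 2.99e-06). H2ax, the histone variant that marks broken DNA, was the other gene called in that step, by 1.36 and 1.62. The count of 2 of 15 is 13.3% of the list, and the list's median difference was 0.48 in set 1 and 0.44 in set 2, against 0.00 and 0.03 over all genes, of which 8.22% and 8.83% were called either way. Between ETP and LSK cells none of the 15 was called (limma, with 2 at an unadjusted p under 0.05 in set 1 and 1 in set 2). Between ETP and CLP none was called (with 1 at that level). Of all genes, 1.51% and 1.41% were called either way in ETP minus LSK, and 1.26% in ETP minus CLP. A count of 0 among 15 genes does not set the list apart from these shares.

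Lig4, which encodes the ligase that seals the joined ends, changed at DN2. It read 7.89, 8.45 and 8.34 in DN2 cells, against 4.40, 4.60 and 4.38 in ETP, a difference of 3.77 (limma, adjusted p = 0.000126). It stayed high in DN3, exceeding ETP by 4.01 in set 1 and 3.82 in set 2 (adjusted p = 2.83e-05 and 1.6e-07). In set 2 it read 6.78, 7.78 and 6.54 in pro-B cells, against 3.93, 3.61, 5.10 and 4.13 in CLP, a difference of 2.84 (adjusted p = 5.62e-06). Its 6 LSK arrays lay between 3.12 and 5.40, where Rag1, Rag2 and Dntt were high. Lig4 was the 1 end-joining gene of 15 called between DN2 and ETP and between DN3 and ETP in each set. Of all genes, 2.70% were called either way between DN2 and ETP, and 6.29% (set 1) and 5.17% (set 2) between DN3 and ETP. The count of 1 of 15, or 6.67%, is thus near the share of all genes in DN3 minus ETP. Pro-B cells also differed from CLP in H2ax (1.56 higher) and in Trp53bp1 (1.35 lower), whose product protects broken ends.

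**Figure D4:**
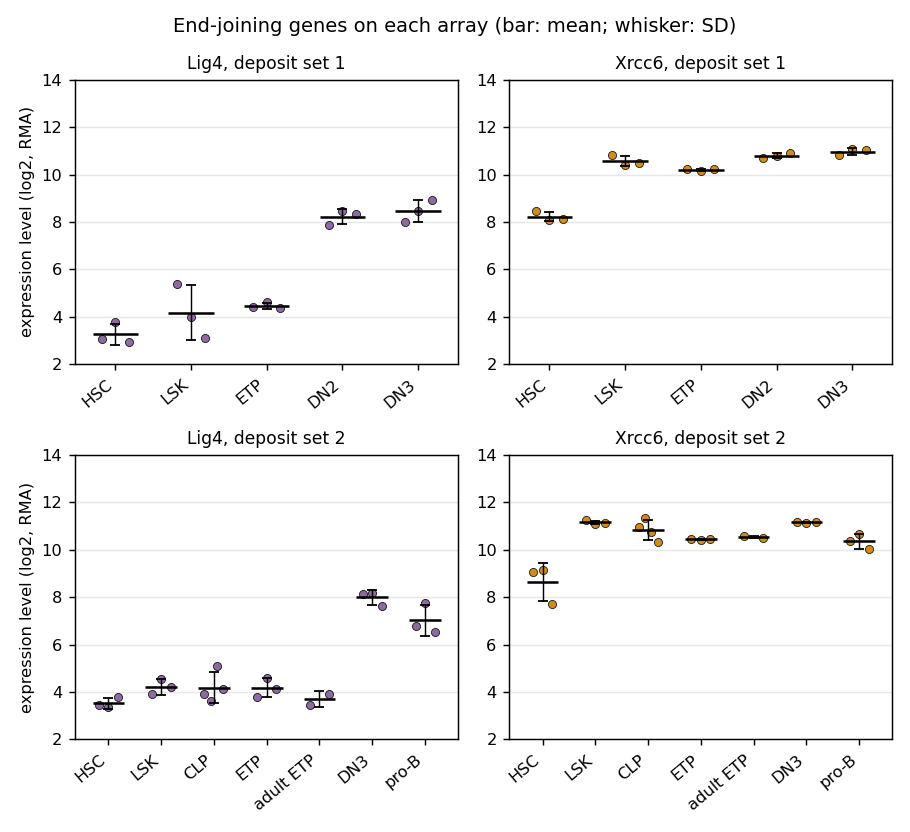
Levels of Lig4 (left) and Xrcc6 (right), RMA log2 on the y axis, by population on the x axis, with set 1 above and set 2 below. Points are arrays, bars are means and whiskers are SD. Lig4 lies at 6.54 or above in DN2, DN3 and pro-B cells and at 5.40 or below elsewhere, while Xrcc6 is lowest in HSC.

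Of the genes listed as RAG cofactors or as acting on RAG2 turnover, 5 of 6 were measured. Ccna2, the cyclin A2 partner of the kinase that marks RAG2 protein for degradation outside G1 phase, was higher in LSK cells than in HSC by 2.00 in set 1 and 1.68 in set 2. The list's median difference there was 0.97 and 0.52. Ccna2 was 1.18 lower in CLP than in LSK cells and 1.83 higher in pro-B cells than in CLP (limma, adjusted p = 0.00311 and 1.87e-06). Skp2, the ubiquitin ligase subunit that recognises marked RAG2, was 1.01 higher in set 1 LSK cells than in HSC (adjusted p = 0.0183) and 1.02 lower in DN3 than in DN2 (adjusted p = 0.0459). Ccna2 is also a general marker of dividing cells. None of the 5 was called in ETP against LSK cells or CLP, or in adult ETP against ETP. In each comparison 0 to 2 reached an unadjusted p under 0.05 (limma). Of all genes, 1.51% and 1.41% were called either way in ETP minus LSK (set 1 and set 2). The shares were 1.26% in ETP minus CLP and 0.0715% in adult ETP minus ETP. A count of 0 among 5 genes does not set the list apart from these shares.

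Among 23 of 24 listed regulators that were measured, 3 were called lower in ETP than in LSK cells in set 1 and 4 in set 2, with Ebf1, Foxo1 and Ets1 in both, and Gata3 was called higher in set 2. The list's median difference was -0.39 in set 1 and -0.20 in set 2, against 0.02 and 0.01 over all genes, of which 1.51% and 1.41% were called either way. Ebf1, a B-lineage factor, was lower by 3.78 and 3.77, and Foxo1, known to act on Rag transcription in B cells, by 1.35 and 2.39 (set 1 and set 2). In HSC, LSK cells and DN3, Foxo1 averaged 9.34, 9.05 and 8.47 in set 1 and 8.69, 9.86 and 7.96 in set 2. The part of any listed regulator in the levels of the 3 members was not tested. Ets1, a lymphoid factor, was lower by 1.03 in set 1 (limma, adjusted p = 0.00135), and Pax5, the B-lineage commitment factor, by 2.82 in set 2 (adjusted p = 0.00025). The same 4 genes of set 2 were the ones called lower in ETP than in CLP. Between DN2 and ETP, Bcl11b, the T-lineage commitment factor, was 7.32 higher, Gata3, another T-lineage factor, 2.20 higher and Tcf12, an E protein, 1.31 higher, while Bcl11a was 1.99 lower. Lef1, a partner of beta-catenin, and Ikzf3, which encodes Aiolos, were higher in DN3 than in DN2, by 4.39 and 4.28. In pro-B cells, 8 regulators were called higher than in CLP and 3 lower, beside 5.93% of all genes called either way, and Satb1, a chromatin organiser known to sustain Rag expression in thymocytes, was among the lower ones (-1.64, adjusted p = 6.77e-06).

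A list of 10 genes near the members on the chromosomes was used, and all 10 were measured. The list leaves out Lrrc4c, Api5 and Ccnj, which lie within 3 genes of a member and were measured. It holds Pik3ap1, which does not lie within 3 genes of a member. Between ETP and LSK cells 1 of 10 was called in each set, beside 1.51% and 1.41% of all genes called either way, with a median difference of -0.19 in set 1 and -0.04 in set 2. Iftap lies beside Rag2 on the opposite strand, and the annotated genes overlap. It read 6.16, 6.38 and 6.22 in DN2 cells, against 8.27, 8.42 and 8.30 in ETP, a difference of -2.07 (limma, adjusted p = 2.06e-06), and it was 1.81 higher in DN3 than in DN2 (adjusted p = 1.41e-05). Rag2 was called in neither step. Blnk, a B cell adaptor gene next to Dntt, was 1.70 lower in ETP than in LSK cells in set 1 and 4.18 lower in set 2. It was 2.66 higher in pro-B cells than in CLP (adjusted p = 1.48e-05), where Dntt was lower.

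Antigen receptor loci, which hold the segments that the recombinase cuts beside, were represented by 30 annotated genes. The list also holds constant-region genes (Ighm, Igha, Ighg3) and names of whole loci (Igk, Tcra), which are not such segments. Probe sets may cross-react between related segments and are uncertain for that reason. Between ETP and LSK cells 3 were called higher and 1 lower in each set, beside 1.51% and 1.41% of all genes called either way, with a median difference of 0.03 in set 1 and -0.04 in set 2. The probe set annotated to Trbv1 averaged 12.24 ± 0.14 in set 1 ETP and 9.10 ± 0.40 in set 1 LSK cells (SD, n = 3 each), a difference of 3.14, and 3.25 in set 2, in the step where Rag1 fell. The probe set annotated to Trgv4 was 5.93 higher in DN2 cells than in ETP (limma, adjusted p = 2.35e-11), and that of Trgv1 5.86 higher, in the step where Rag1 and Lig4 rose. Ighm averaged 9.69 ± 0.37 in set 1 ETP, and was 1.90 lower in DN2 cells (adjusted p = 0.00117). An array level does not tell a rearranged transcript from a germline one.

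Across populations, Rag1 correlated with Rag2 at r = 0.91 in set 1 (15 arrays) and 0.88 in set 2 (21 arrays). The coefficients for Dntt were 0.91 and 0.75 with Rag1, and 0.97 and 0.82 with Rag2. These describe arrays that share populations and normalization and that HSC pull far from the rest. By the lower of the set 1 and set 2 coefficients, the genes most like Rag1 were Cmah (0.92 and 0.90), an enzyme of sialic acid, Mzb1 (0.99 and 0.89), an endoplasmic reticulum protein of B cells, and then Rag2. Rag2 was most like Il7r (0.98 and 0.91), which encodes the interleukin 7 receptor alpha chain, itself part of the LSK sort gate. Dntt was most like Il7r (0.96 and 0.95), Satb1 (0.93 and 0.94) and Xrcc6 (0.95 and 0.92).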

How the data were processed

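Total RNA was extracted with Trizol, per the labels' protocols, and RNA of 36 sorted samples was hybridised to one-colour arrays. The authors deposited log2 values made by RMA, per the submitters' processing notes. The base of the log is read from the range of the values. The version and the annotation used were not given in the sources used here. The value table holds 45101 probe sets, 64 of them controls. Gene names came from the platform annotation supplied with the table, which can be old: 34945 probe sets had 1 gene, 932 several and 9160 none, and 204 of the single-gene ones had no match in the RefSeq gene table. RMA borrows its scale from the arrays processed together, and the 2 sets, told apart by their labels, differ in array median, so each was fitted alone.

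A gene was represented by its probe set of highest mean over all arrays. Within a set, limma 3.58.1 (R 4.3.3) fitted population means over all its arrays, with Benjamini-Hochberg adjustment over 18193 genes. A call needed an adjusted p under 0.05 and a difference of at least 1. The fit was tested on simulated data. Ratios of 2 members were compared by exact permutation within sets, a test added after seeing the data. Fits without HSC replicate 6, for set 2 populations other than HSC, were also not planned. The members, the lists of pathway genes and the markers were chosen with earlier results of these data known. Genes of like pattern were named by the lower of their Pearson coefficients in the 2 sets. Same-numbered arrays of different populations did not visibly deviate together (correlation of deviations -0.05 to 0.11 in set 1 and -0.19 to 0.21 in set 2). The main fit therefore did not pair arrays by number, although so few arrays per population cannot show that none were handled together. No pair of arrays correlated above 0.991 over the 18193 genes. Arrays without a number in the title were numbered last in their population, and this number only names them. Dclre1c, Hmgb1 and Tcf7 had no probe set of their own and were not analysed here. Alternatives covered the probe set per gene, normalization, the samples in the fit, array weights, the threshold and the arrays left out. Python 3.11.15 drew the figures.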

Additional observations from a re-analysis of the deposited data

How the results depend on the processing

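Of 39 member comparisons, 30 kept their side of the threshold under every alternative run (13 of 13 for Rag1, 8 of 13 for Rag2 and 9 of 13 for Dntt), and no called difference turned sign. The sign of 4 uncalled differences was not fixed: over the alternatives Rag1 ran from -0.52 to 0.07 in CLP minus LSK and from -0.04 to 0.37 in adult ETP minus ETP, and Rag2 from -0.58 to 0.03 in adult ETP minus ETP and from -0.32 to 0.06 in DN3 minus pro-B. With 1450545_a_at, Dntt over Rag1 in LSK minus HSC was 0.74 in set 1 and turned to -0.10 in set 2. One model of all 36 arrays with the set as a term called Rag2 lower in ETP than in LSK cells (-1.53, adjusted p = 0.0129) and higher in DN3 than in ETP (1.62, adjusted p = 0.00205), and it called 38 genes between adult ETP and ETP. A fit of the compared populations alone called Rag2 in set 2 for ETP minus LSK (-2.11, adjusted p = 0.000173), ETP minus CLP (-1.72, 0.00389) and DN3 minus ETP (1.73, 0.000244), gave 36 genes for CLP minus LSK, and lost Dntt in adult ETP minus ETP (1.54, 0.093). Array weights called the same Rag2 differences (-2.13, -1.75 and 1.69, with adjusted p = 0.000915, 0.0172 and 0.0217) and 129 genes between adult ETP and ETP. Quantile normalization called Rag2 in DN3 minus ETP of set 2 (1.84, 0.0499). With 1450545_a_at, Dntt was not called in DN3 minus DN2 (1.55, 0.0586), adult ETP minus ETP (1.98, 0.0675) or DN3 minus pro-B (0.89, 0.0823). The mean of a gene's probe sets gave 23 genes between adult ETP and ETP, against 13.

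A test against a 1.5-fold difference (treat) did not call Rag2 in DN3 minus ETP of set 1 (1.51, 0.115), or Dntt in DN3 minus DN2 (1.48, 0.688), adult ETP minus ETP (1.54, 1.0), DN3 minus ETP of set 2 (1.29, 0.0801) and DN3 minus pro-B (1.27, 0.0754). It left 752 and 893 genes for LSK minus HSC in set 1 and set 2, 98 and 86 for ETP minus LSK, 619 and 527 for DN3 minus ETP, 245 for DN2 minus ETP, 146 for DN3 minus DN2, 5 for CLP minus LSK, 77 for ETP minus CLP, 418 for pro-B minus CLP, 679 for DN3 minus pro-B and 1 for adult ETP minus ETP. With no minimum difference the counts were 2981 and 3073 for LSK minus HSC, 1809 and 1516 for DN3 minus ETP, 770 for DN3 minus DN2, 2952 for pro-B minus CLP and 3275 for DN3 minus pro-B. Apart from the stricter and looser thresholds, whose own construction sets their counts, the cause was not tested.

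With single arrays left out, Dntt ranged from 1.29 to 1.75 in adult ETP minus ETP and from 1.35 to 1.74 in DN3 minus DN2. In set 2, Rag2 ranged from -2.20 to -2.03 in ETP minus LSK, from -1.85 to -1.60 in ETP minus CLP and from 1.64 to 1.82 in DN3 minus ETP, each called only when HSC replicate 6 was the array left out. The Rag1 difference between sets in ETP minus LSK ranged from -1.69 to -1.33. Counts of genes called ranged from 1 to 19 in adult ETP minus ETP (1 without adult ETP replicate 1 and 5 without ETP replicate 6) and from 36 to 61 in CLP minus LSK (36 without LSK replicate 4). The replicate block changed none of 27 member calls and moved none of 9 counts by over 1.5 times (for example Rag1 in ETP minus LSK of set 1, -3.31, adjusted p = 1.41e-05). No paired analysis was possible because no numbers are shared for CLP minus LSK, ETP minus CLP, adult ETP minus ETP and DN3 minus pro-B. Of 1130 counts over the gene lists run under alternatives, 101 moved by over 1.5 times.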
